A study of Caenorhabditis elegans with 11 samples.

Results

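Early embryos of a Caenorhabditis elegans strain mutant for cfp-1 were compared with wild-type embryos by RNA-seq. The comparison was defined by the sample labels and covered 3 cfp-1 and 3 wild-type libraries, 6 of the 11 libraries of the series, and every gene of the count table. The study names the mutant allele as cfp-1(tm6369) and the wild-type strain as N2 (Bristol). The other 5 libraries came from set-2(bn129) embryos (3 libraries) and sin-3(tm1276) embryos (2 libraries). Embryos of all 4 strains were collected at an early stage by dissolving young adults in hypochlorite and were frozen. According to the study nearly all of these embryos lay below a stated cell number, but no age is given for single libraries. Each library came from an independent biological replicate. The cfp-1 mutant is 1 deletion allele, and neither the labels nor the methods say which cfp-1 strain the RNA came from or whether the mothers were homozygous. Each library is RNA from a pool of whole embryos, so fewer cells of a type and less RNA per cell cannot be told apart.

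CFP-1 is the worm homologue of the CXXC zinc-finger protein that binds unmethylated CpG-rich DNA and brings the SET1 COMPASS complex to promoters, where the complex trimethylates lysine 4 of histone H3. In C. elegans the catalytic subunit of this complex is SET-2. SIN-3 is the scaffold of a histone deacetylase complex. Early worm embryos run first on RNAs that the mother loaded into the oocyte, and these maternal RNAs are cleared while the embryonic genome is switched on lineage by lineage.

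The forward-strand gene cfp-1 (WBGene00009924) covers chrIV:14077435-14083568 in the WBcel235 annotation. Exon 5 of transcript F52B11.1a.1, the exon that the tm6369 deletion removes, runs from 14081965 to 14082170, is 206 bp long and is coding throughout. It follows 1115 coding bp, or 371 whole residues, of the 508 in the full protein, and its length exceeds whole codons by 2 bases. The deletion was followed by PCR in the study with a pair of primers, shown here because the genotype of the strain rests on them. Both are printed 5′ to 3′.
cfp-1 F1: aggagtgcacgagccacgta
cfp-1 R1: acacggggcagtttgtgcga
The cfp-1 transcript, counted over all exons, gave 1192, 1476 and 1520.1 normalized counts (counts scaled by effective library size) in the cfp-1 libraries, against 3983, 4176 and 4202 in the wild-type libraries. All 3 mutant libraries lay below all wild-type libraries. The transcript averaged 1396 ± 178 in cfp-1 and 4121 ± 119.6 in wild-type embryos (SD, n = 3 each), a log2 fold change of -1.56 with a standard error of 0.13. By the quasi-likelihood test of edgeR, adjusted after Benjamini and Hochberg over all genes tested, p was 2.88e-05, and the same test is meant wherever an adjusted p is given. With the covariate for embryo age described below, the log2 fold change was -2.21 (adjusted p = 0.00975). Reads of the gene were thus still present in the mutant, and the counts do not say from which exons they came.

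Library totals were 29169245, 23909575 and 26386239 counts for cfp-1 and 26359923, 30845111 and 28788111 counts for wild-type, within the range of 21596949 to 35258557 of the series. The test covered the 11547 protein-coding genes whose normalized counts averaged above 10, in 1 model of all 11 libraries with a mean for each strain. Libraries of one strain differed beyond sampling noise in every pair by a chi-square test of their counts within cfp-1 and within wild-type, so none of these 6 was a copy of another. Defining markers of the sample were checked against its label. Oocyte markers, which a young embryo inherits, and early zygotic transcription factors were both abundant, whereas markers of differentiated pharynx muscle summed to 4.54 to 4.90 CPM (counts scaled to a common library total) in cfp-1 and 3.31 to 5.48 CPM in wild-type libraries. Muscle markers summed to 37.5 to 104 CPM in cfp-1 and 32.5 to 113 CPM in wild-type, and epidermis and cuticle markers to 919 to 1646 CPM in cfp-1 and 1158 to 2122 CPM in wild-type libraries, so these overlapped between the strains. Neuron markers summed to 389 to 435 CPM in cfp-1 and 337 to 398 CPM in wild-type libraries and overlapped too. Markers of the differentiated intestine were barely apart, at 27.4 to 38.6 CPM in cfp-1 and 38.7 to 63.5 CPM in wild-type libraries. The gene elt-2 belongs to these and to the early zygotic markers. Yolk genes of the adult intestine did not overlap, at 1.80 to 2.50 CPM in cfp-1 and 0.922 to 1.54 CPM in wild-type libraries.

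Genes changed in both directions in cfp-1 embryos, and the higher genes changed more. By the quasi-likelihood test at an adjusted p under 0.05, 1462 genes were higher in cfp-1 (12.7% of the genes tested) and 1315 were lower (11.4%), compared with wild-type. Which direction held more calls depended on the scaling, since factors computed before the filter gave 1261 higher and 1623 lower genes. The median log2 fold change was 0.95 among the higher genes and -0.59 among the lower genes. A change of at least 2-fold was found for 689 of the higher and 191 of the lower genes, and one of at least 4-fold for 172 and 42. In contrast, 393 higher and 649 lower genes changed by less than 1.5-fold. The higher genes also had fewer reads, with a median of the mean normalized counts of 285 against 1178 for the lower genes and 726 for all genes tested. No cfp-1 library overlapped the wild-type libraries in 1400 of the higher and 1307 of the lower genes, and in 40.3% of all genes tested. At an unadjusted p under 0.05 there were 4368 genes. The counts depended on single libraries. Without cfp-1 replicate 3 they were 845 higher and 677 lower, without wild-type replicate 3 973 higher and 900 lower, and 861 and 862 genes were lower without wild-type replicates 1 and 2. The plot of all genes tested shows both the wider spread of the higher genes at low counts and the few genes that fell far at higher counts.

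**Figure D1:**
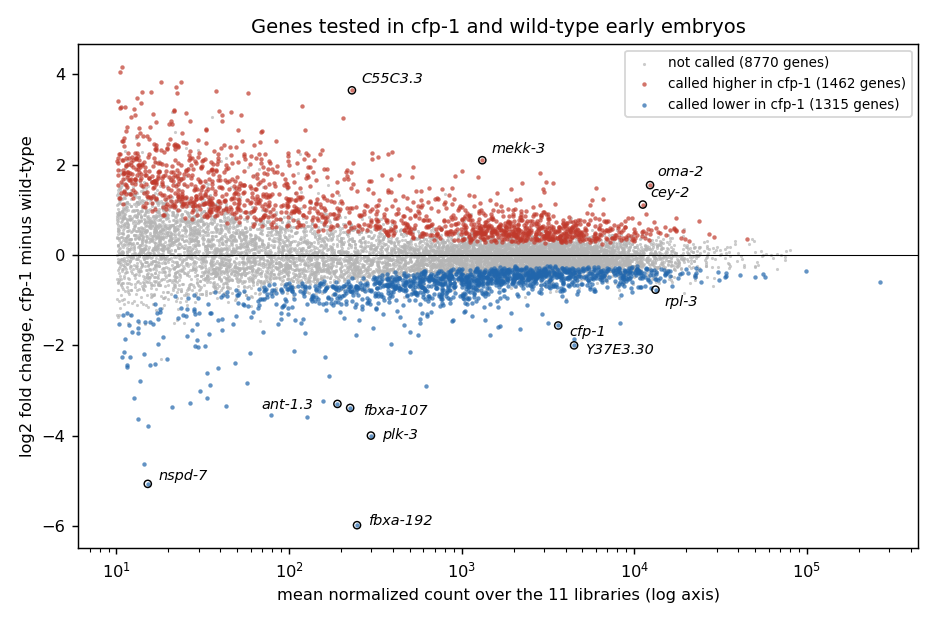
Log2 fold change (cfp-1 minus wild-type) against the mean normalized count over the 11 libraries on a log axis, 1 point per gene tested, with called genes in colour and single genes of the text circled. Of 11547 genes, 1462 were called higher and 1315 lower. The lowest point is fbxa-192 at -5.98. Genes at the detection limit in a strain, such as nspd-7, are drawn at their fitted value, which is not a bound.

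A score of embryo age moved with the strain. This score, the mean log2(CPM + 1) of early zygotic transcription factors minus that of oocyte genes, was -2.29, -2.80 and -3.01 in the cfp-1 libraries, against -1.44, -1.46 and -1.71 in the wild-type libraries, so that every cfp-1 library scored lower than every wild-type library. It was -1.47, -1.42 and -1.81 in set-2 libraries and -2.998 and -3.11 in sin-3 libraries. With this score as a covariate, the fit called 28 genes higher and 24 lower, with a median standard error of 0.39 on the log2 scale in place of 0.17. In that fit no gene list described below had more than 2 called genes in either direction. The score was built from oocyte and zygotic genes and did not overlap between the strains, so age and genotype cannot be told apart. Among the genes described below, those called with and without the covariate, besides cfp-1, were fbxa-192, fbxa-107, plk-3, R11A8.1, bath-1, bath-7, Y37E3.30, E01G4.5 and mes-3 among the lower and C55C3.3, K10G9.2, rif-1.2, Y71H2AM.25, irld-39, mekk-3 and ztf-18 among the higher genes.

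The largest fall was in fbxa-192, a gene of the F-box family, whose proteins give substrate specificity to ubiquitin ligases. It had 8.44, 12.0 and 11.9 normalized counts in cfp-1 libraries, against 643, 736 and 670.0 in wild-type libraries (log2 fold change -5.98, standard error 0.25, adjusted p = 2.31e-07). Every mutant library held a small fraction of the lowest wild-type value. A second F-box gene, fbxa-107, had 46.9, 53.8 and 53.2 normalized counts in cfp-1 and 451, 602 and 557 in wild-type libraries (log2 fold change -3.39, standard error 0.18, adjusted p = 8.77e-07). The gene plk-3, which encodes a kinase of the polo-like family, had 28.1, 16.7 and 16.3 normalized counts in cfp-1 and 285, 351 and 361 in wild-type libraries (log2 fold change -3.999, standard error 0.23, adjusted p = 1.66e-06). Genes whose strains overlapped had been left out before the largest decreases were chosen. R11A8.1, F55G1.6, T08B2.11, bath-1, msrp-2 and the adenine nucleotide translocator genes ant-1.3 and ant-1.4 made up the rest of the 10 largest decreases among well-read genes, with log2 fold changes between -3.59 and -2.27. The genes ant-1.3 and ant-1.4 encode carriers that exchange ADP and ATP across the inner mitochondrial membrane. ant-1.3 had 62.8, 26.3 and 74.9 normalized counts in cfp-1 and 279.6, 719 and 627 in wild-type libraries, and ant-1.4 had 57.2, 25.1 and 61.9 in cfp-1 and 229, 608 and 525 in wild-type. In both genes wild-type replicate 1 was the lowest of the wild-type libraries yet above every mutant library. Since these are near copies, reads could have been split or lost between them.

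Among the genes that rose, C55C3.3 had the largest change with good coverage, at 352, 298 and 330.1 normalized counts in cfp-1 libraries, against 20.4, 29.4 and 28.1 in wild-type libraries (log2 fold change 3.64, standard error 0.23, adjusted p = 3.62e-06). The annotation names no function for it. idpp-7 had 79.7, 117 and 136 in cfp-1 and 10.7, 5.69 and 10.42 in wild-type libraries (log2 fold change 3.62, standard error 0.34, adjusted p = 5.84e-05), and R01H10.4 had 136, 119.6 and 148 in cfp-1 and 4.28, 18.96 and 9.38 in wild-type libraries (log2 fold change 3.59, standard error 0.38, adjusted p = 0.000103). For all of them the lowest mutant library was several times the highest wild-type library. Genes whose strains overlapped had been left out before the largest increases were chosen. The other genes among the 10 largest increases were rif-1.2, Y71H2AM.25, K10G9.2, C09G5.7, Y55F3AM.11, the F-box gene fbxa-172 and ugt-40, a UDP-glucuronosyltransferase gene of detoxification, with log2 fold changes between 2.50 and 3.301. By the smallest p-value, mekk-3 and ztf-18 led together with C55C3.3. mekk-3, named for the MAP kinase kinase kinases, had 1294, 1150.5 and 1307 normalized counts in cfp-1 and 338, 248 and 292 in wild-type libraries (log2 fold change 2.095, standard error 0.12, adjusted p = 1.85e-06). ztf-18, a zinc-finger gene, had 3262, 3156 and 3337 in cfp-1 and 1058, 814 and 900.3 in wild-type libraries (log2 fold change 1.82, standard error 0.11, adjusted p = 1.85e-06). Replicates of these genes lay close together in both strains.

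Abundant transcripts also changed by more than 2-fold. oma-2, which encodes a CCCH zinc-finger protein that oocytes need to mature, had 17717, 19438 and 21732 normalized counts in cfp-1 libraries, against 6392, 6345 and 7450.3 in wild-type libraries (log2 fold change 1.54, standard error 0.13, adjusted p = 3.54e-05). cey-2, a Y-box RNA-binding protein of the germline, had 18635, 13049.8 and 16436 in cfp-1 and 7040.4, 7645 and 7543 in wild-type (log2 fold change 1.11, standard error 0.12, adjusted p = 0.00014), and eat-6, the alpha subunit of the sodium-potassium ATPase, had 7587, 9851 and 10617 in cfp-1 and 3598, 3816 and 4424 in wild-type libraries (log2 fold change 1.24, standard error 0.17, adjusted p = 0.000497). These were the most abundant of the genes higher by at least 2-fold. The most abundant of those lower by at least 2-fold were E01G4.5, Y37E3.30 and Y46H3C.7, to which the files give no function. Y37E3.30 had 2635, 2629.8 and 2666 in cfp-1 and 10411, 11567 and 9791 in wild-type (log2 fold change -2.002, standard error 0.10, adjusted p = 4.96e-07), and E01G4.5 had 5472, 5746 and 6570.0 in cfp-1 and 14780.2, 18782 and 17069 in wild-type libraries (log2 fold change -1.51, standard error 0.12, adjusted p = 1.71e-05). The spread between replicates was small beside these differences, as the plot of normalized counts by library shows.

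**Figure D2:**
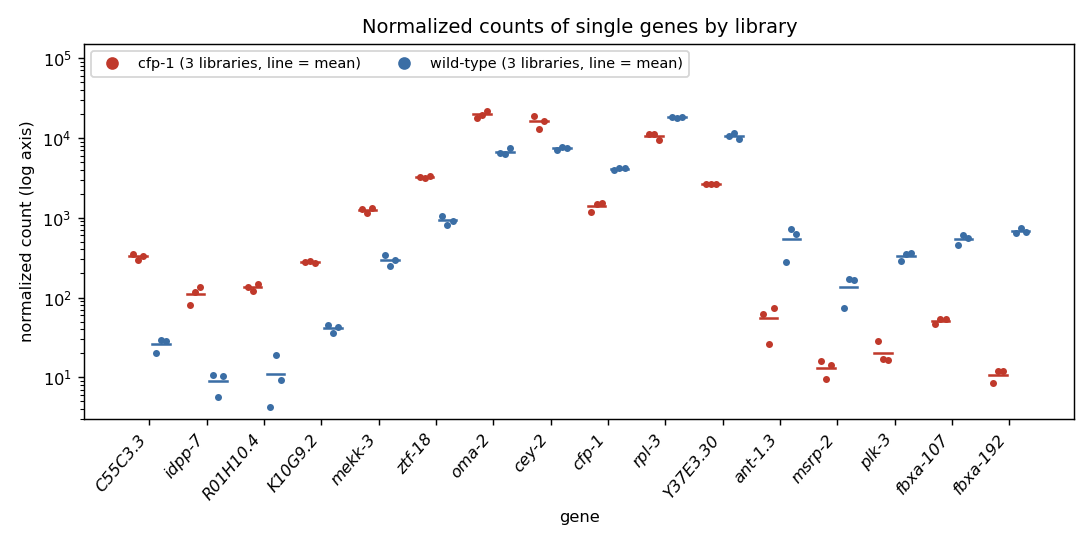
Normalized counts on a log axis of 16 genes in the 3 cfp-1 libraries (left of each pair) and the 3 wild-type libraries (right), 1 point per library with a line at the mean. The strains do not overlap for any gene shown, which was a condition of choice for the genes with the largest increases and decreases. fbxa-192 lies between 8.44 and 12.0 in cfp-1, against 643 to 736 in wild-type.

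Most genes of the COMPASS and SIN3 complexes did not pass the test. COMPASS writes H3K4 methylation, and of its 9 subunit genes cfp-1 itself was lower and wdr-5.1, a WD-repeat scaffold of the core, was higher, though it was not called without wild-type replicate 1. wdr-5.1 had 8389, 7594 and 7774 normalized counts in cfp-1 and 5872, 6527 and 6185 in wild-type libraries (log2 fold change 0.35, standard error 0.09, adjusted p = 0.0137). The catalytic subunit gene set-2 had 7864, 8359 and 7797 in cfp-1 and 9684, 7932 and 9719.7 in wild-type libraries, with a log2 fold change of -0.19 that missed the threshold (standard error 0.20, adjusted p = 0.527 by the quasi-likelihood test). The other 6 subunit genes, ash-2, rbbp-5, dpy-30, swd-2.1, swd-2.2 and hcf-1, had log2 fold changes between -0.17 and 0.20 and were not called. Of the 5 SIN3 complex genes 0 were called by edgeR, 0 by DESeq2 and 0 at an unadjusted p under 0.05. Their log2 fold changes lay between -0.21 for the scaffold sin-3 and 0.25 for suds-3. The deacetylase gene hda-1 had 11449, 12117 and 11341 in cfp-1 and 13290.3, 11894 and 13556 in wild-type libraries, which overlapped. The levels of the mutated genes matched the labels of the other mutants. set-2 libraries held 2437, 4504 and 2499 normalized counts of set-2, all below the wild-type values above, and sin-3 libraries 3909 and 4447 of sin-3, against 10195, 8078 and 9916 in wild-type.

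Some genes of other chromatin lists were lower in cfp-1, where 11.4% of all genes tested were lower. These lists are short, so a share above 11.4% rests on few genes, and no list was tested against that share. Among the histone genes the share of lower genes was below it. The SET-16 complex and the H3K4 demethylases had 2 lower genes of 7, pis-1 of the SET-16 complex (log2 fold change -0.68, standard error 0.21, adjusted p = 0.0333) and rbr-2, the KDM5-family demethylase of H3K4 (log2 fold change -0.59, standard error 0.13, adjusted p = 0.00628). rbr-2 had 5984, 7468 and 6712 normalized counts in cfp-1 and 10871, 8721 and 10866 in wild-type libraries. Of 11 other histone methyltransferase genes, mes-3 and mes-6, subunits of the H3K27 methyltransferase complex of the germline, were lower (log2 fold changes -0.49 and -0.50) and set-17 was higher by 0.37 on the log2 scale. With the age covariate the value of set-17 was -0.0763. Without any 1 of cfp-1 replicate 3 and wild-type replicates 1 and 3, both lists had 1 lower and 0 higher genes, and without cfp-1 replicate 1 or sin-3 replicate 1 both had 1 lower gene. The remaining 8, among them mes-2, mes-4, met-1, met-2 and set-25, were not called. Of 19 genes of the synMuv B, DREAM and NuRD repressors, 5 were lower, namely mep-1, dcp-66, lin-61, lin-35, the worm retinoblastoma homologue, and lin-9. None was higher by edgeR, against 1 by DESeq2 and 1 at an unadjusted p under 0.05. mep-1 had 8399.9, 9748 and 7905 in cfp-1 and 14859.5, 12347 and 14726 in wild-type libraries (log2 fold change -0.69, standard error 0.14, adjusted p = 0.0049). Of 39 histone genes tested, 2 were higher and 1 was lower. The lower one, his-24, is a linker histone and had 43149, 47295 and 37463 in cfp-1 and 60253, 58598 and 59632 in wild-type libraries (log2 fold change -0.48, standard error 0.14, adjusted p = 0.0273), and his-74, a histone H3 variant gene, had 6756, 5495 and 6981 in cfp-1 and 3223, 4256 and 3881 in wild-type (log2 fold change 0.76, standard error 0.13, adjusted p = 0.00224). The call of his-24 was lost without any 1 of cfp-1 replicates 1 and 3 and wild-type replicates 1, 2 and 3. Most histone messages lack a poly(A) tail, which limits what a poly(A) library reads of them.

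Transcripts of the oocyte and of maternal cell fate control were higher in cfp-1 embryos. Of 30 oocyte and maternal regulator genes, all tested, 18 were higher (60%, against 12.7% of all genes tested). The median log2 fold change of the 30 genes was 0.54, against -0.00185 for all genes tested. None was lower by edgeR, against 1 by DESeq2 and 1 at an unadjusted p under 0.05. Besides oma-2 and cey-2, the called genes included cey-3, oma-1, the Pumilio-family repressors puf-3, puf-5, puf-6, puf-8 and puf-11, the translational repressor gld-1, the polarity genes mex-5 and mex-6 and the Nanos gene nos-2. puf-5 had 4602, 3773 and 4073 normalized counts in cfp-1 and 2016, 2299.6 and 2335 in wild-type libraries (log2 fold change 0.90, standard error 0.11, adjusted p = 0.000237). gld-1 had 13657, 17043 and 16759 in cfp-1 and 8039, 7639.9 and 9727 in wild-type libraries (log2 fold change 0.90, standard error 0.17, adjusted p = 0.00359), so neither gene overlapped between the strains. Some maternal messages of early signalling were higher as well. Of all 34 Wnt and Notch pathway genes, 4 were higher and 4 lower (11.8% each), near the 12.7% and 11.4% of all genes tested. mom-2, a Wnt ligand that polarizes the mother cell of the endoderm, had 8749.7, 6911 and 8014 in cfp-1 and 4202, 4612 and 4527 in wild-type libraries (log2 fold change 0.83, standard error 0.12, adjusted p = 0.0007), and apx-1 and glp-1, ligand and receptor of the Notch signal, had log2 fold changes of 0.57 and 0.48. Among all gene families of at least 8 tested members, the puf family was one of 13 with 40% or more of its genes called in one direction, with 5 of 8 higher and 1 lower. Without cfp-1 replicate 3, 13 genes of the 30 were higher, and the same number without wild-type replicate 1. With the age covariate none was higher and 1 was lower, but oocyte genes also enter the age score itself.

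Eggshell and meiotic genes shared this direction. The eggshell is laid down around the fertilized oocyte from components stored during oogenesis. Of 15 eggshell and egg activation genes tested of 18 listed, 9 were higher (60%, against 12.7% of all genes tested), with a median of 0.71. Without cfp-1 replicate 3, 5 were higher. cpg-1, a chondroitin proteoglycan of the eggshell, had 2061, 2456 and 3501 normalized counts in cfp-1 and 807, 1112 and 975 in wild-type libraries (log2 fold change 1.47, standard error 0.19, adjusted p = 0.000435). None was lower by edgeR, by DESeq2 or at an unadjusted p under 0.05. egg-3, which links eggshell formation to egg activation, had 4516, 4126 and 4645 in cfp-1 and 1487, 1656 and 1709.9 in wild-type libraries. Of 24 synaptonemal and meiotic genes, 11 were higher (45.8%, median 0.44). None was lower by edgeR, against 1 by DESeq2 and 2 at an unadjusted p under 0.05. The count of higher genes was 5 without cfp-1 replicate 3 or without wild-type replicate 1 and 7 without wild-type replicate 3. syp-2, a central-region protein of the synaptonemal complex that joins paired chromosomes, had 1293, 1237 and 1617 in cfp-1 and 522, 576 and 562 in wild-type libraries (log2 fold change 1.32, standard error 0.16, adjusted p = 0.000249). Also called were the axis protein gene him-3, the meiotic cohesin genes rec-8, coh-3 and coh-4, and spo-11, whose product makes the breaks that start recombination. Their log2 fold changes were 1.00, 0.48, 0.77, 0.53 and 0.64.

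Small RNA genes were called in both directions. Of 30 P granule and Argonaute genes tested, 12 were higher (40%) and 5 lower (16.7%). Of all genes tested 12.7% were higher and 11.4% lower, so the lower share was near that of all genes. The higher genes included germline factors: pgl-3, glh-2, glh-4 and deps-1 of the P granules, and the Argonautes prg-1, csr-1, hrde-1 and wago-1. The genes sago-2, vsra-1 and wago-4 were higher too. csr-1 had 1807, 2052 and 2201 normalized counts in cfp-1 and 1409, 1400.0 and 1646 in wild-type libraries (log2 fold change 0.44). The largest increase was in wago-10, at 17.8, 12.0 and 18.5 in cfp-1 and 6.43, 1.90 and 5.21 in wild-type libraries (log2 fold change 1.84, standard error 0.47, adjusted p = 0.0156), with few reads in either strain. The lower genes were alg-3 and alg-4, the Argonautes of spermatogenesis, sago-1, rde-1, which starts the response to foreign double-stranded RNA, and nrde-3, a nuclear Argonaute of somatic cells. alg-3 had 5.63, 5.98 and 9.77 in cfp-1 and 11.8, 40.8 and 45.8 in wild-type libraries (log2 fold change -2.19, standard error 0.55, adjusted p = 0.0137). The count of 5 lower genes was 1 without wild-type replicate 3, 2 without cfp-1 replicate 1 or 3 and 3 without wild-type replicate 1.

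**Figure D3:**
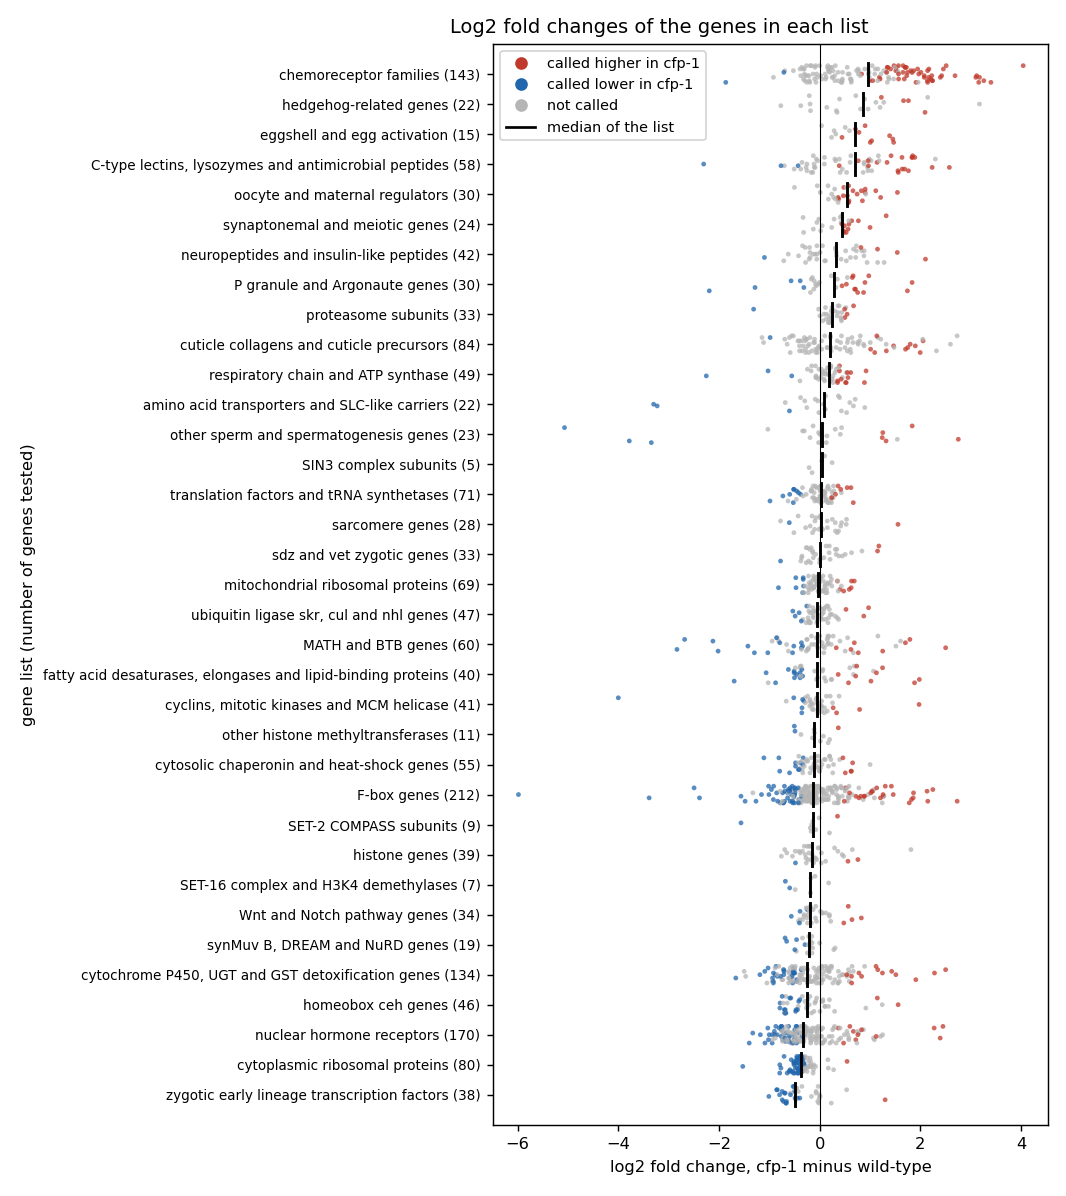
Log2 fold change (cfp-1 minus wild-type) of every tested gene in 35 gene lists, ordered by the median of the list (black bar), with called genes in colour. Oocyte, eggshell and meiotic lists lie to the right with medians of 0.54, 0.71 and 0.44, and the cytoplasmic ribosomal proteins and early lineage transcription factors to the left with -0.38 and -0.48.

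Many transcription factor genes of the early lineages, which the embryo itself switches on, were lower. Of 38 tested transcription factor genes of this list, 19 were lower (50%, against 11.4% of all genes tested) and 1 was higher. The median log2 fold change was -0.48. Without cfp-1 replicate 3, 12 were lower. The lower genes came from several germ layers. vab-7, an even-skipped homologue of posterior muscle and epidermis, had 169, 139 and 109.7 normalized counts in cfp-1 and 328, 262 and 252 in wild-type libraries (log2 fold change -1.01, standard error 0.19, adjusted p = 0.00344). hlh-1, the worm MyoD, had 731, 695 and 650.4 in cfp-1 and 1223, 1113 and 1086 in wild-type libraries (log2 fold change -0.72, standard error 0.12, adjusted p = 0.0019). The GATA factors elt-2 and elt-7 of the endoderm fell by 0.74 and 0.53 on the log2 scale, and pha-4, the FoxA factor of pharynx and gut, by 0.66. The posterior Hox genes nob-1 and php-3 fell by 0.80 and 0.84. The earliest endoderm genes did not pass the test: end-1 had 507, 348 and 389 in cfp-1 and 531, 610.4 and 577 in wild-type libraries (adjusted p = 0.0619 by the quasi-likelihood test), and end-3 had 91.9, 77.7 and 65.1 in cfp-1 and 61.1, 92.9 and 81.3 in wild-type. tbx-35, a T-box gene of the mesoderm precursor MS, was the higher gene, with 172, 47.8 and 82.5 in cfp-1 and 43.9, 40.8 and 38.6 in wild-type libraries (a 2.46-fold difference, adjusted p = 0.0248). Its level was highest in cfp-1 replicate 1, and it was not called without that library or without any 1 of the wild-type libraries.

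Several wider transcription factor families leaned the same way, set beside the 11.4% lower and 12.7% higher of all genes tested. Of 46 homeobox ceh genes tested, 15 were lower (32.6%) and 2 higher (7 lower without cfp-1 replicate 3 and 9 without wild-type replicate 1). ceh-6, a POU-family gene, had 164, 173 and 153 normalized counts in cfp-1 and 357, 249 and 243 in wild-type libraries (log2 fold change -0.79, standard error 0.19, adjusted p = 0.0119). Of 170 nuclear hormone receptor genes tested of 269 listed, 40 were lower (23.5%) and 11 higher (6.47%), with a median of -0.32. The higher count was 5 without cfp-1 replicate 3, 6 without cfp-1 replicate 2 or wild-type replicate 3 and 7 without wild-type replicate 1 or 2. The count of lower receptors was 14 without cfp-1 replicate 3 and 20 without wild-type replicate 1 or 2. In the tbx family of T-box genes 6 of 15 were lower and 1 higher, and in the zip family of bZIP factors 4 of 9 were lower. The ztf family had 5 lower and 4 higher genes of 24, and the hlh family 3 lower and 1 higher of 14. Of 10 genes named vab for a variably abnormal body, 5 were lower, vab-7 among them. That name marks a phenotype and not a family of transcription factors. In other zygotic genes few calls were made. The sdz and vet genes, named as SKN-1-dependent zygotic and very early transcripts, had 2 higher and 1 lower gene of 33. These counts were 5 higher without cfp-1 replicate 2 and 7 lower without cfp-1 replicate 1. sdz-5 had 1383, 1318 and 1313 in cfp-1 and 2351, 2396 and 2129.8 in wild-type libraries (log2 fold change -0.78, standard error 0.11, adjusted p = 0.000689), and sdz-38 had 389, 121 and 234.5 in cfp-1 and 77.1, 153 and 100.03 in wild-type (log2 fold change 1.18, standard error 0.37, adjusted p = 0.0371).

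The summed levels of both marker groups separated the strains in every library. The 21 oocyte markers together held 7206 to 8071 CPM in cfp-1 libraries, against 4502 to 5516 CPM in wild-type libraries, and the 21 early zygotic markers held 616 to 722 CPM in cfp-1 and 894 to 963 CPM in wild-type libraries. Of the markers tested, 13 of 19 oocyte genes were higher and 0 lower (0 also by DESeq2 and at an unadjusted p under 0.05). Of the zygotic genes, 12 of 19 were lower and 1 higher, where 12.7% of all genes tested were higher and 11.4% lower. The sin-3 libraries lay near the cfp-1 values, with 8405 to 8566 CPM of oocyte and 662 to 684 CPM of zygotic markers, while set-2 libraries held 4399.9 to 5313 CPM of oocyte and 806 to 1094 CPM of zygotic markers. Younger embryos in the cfp-1 collections and other RNA levels at like age cannot be told apart.

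**Figure D4:**
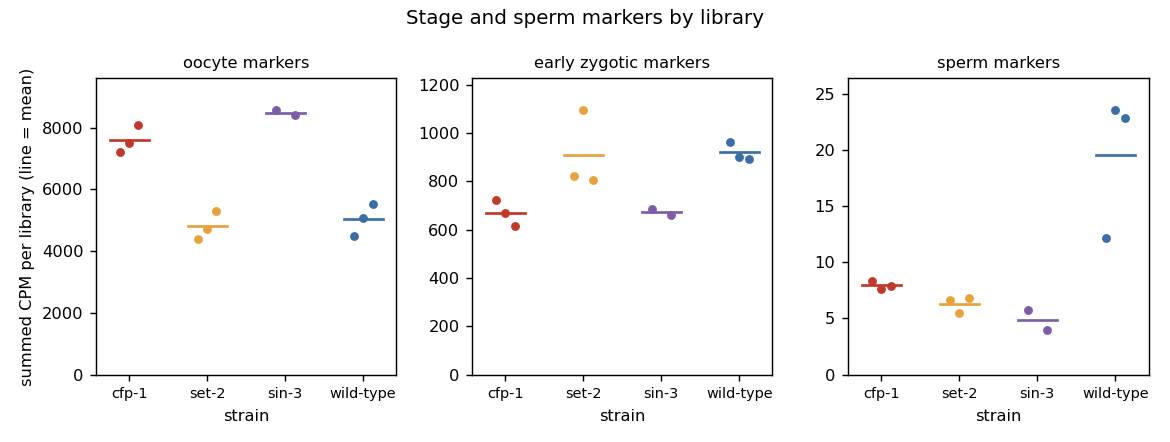
Summed CPM of oocyte, early zygotic and sperm markers in each library (points) of cfp-1, set-2, sin-3 and wild-type embryos, with a line at the mean of the strain and axes from 0. Oocyte markers lie at 7206 to 8071 CPM in cfp-1 and 4502 to 5516 CPM in wild-type, and sperm markers at 7.62 to 8.34 CPM in cfp-1 and 12.2 to 23.5 CPM in wild-type.

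Ribosomal protein genes fell together and by little. Of 46 rpl genes of the large subunit, 31 were lower (67.4%) and 1 higher in cfp-1. Of 31 rps genes of the small subunit, 22 were lower (71.0%), where 11.4% of all genes tested were lower. The median log2 fold change was -0.38 in each. rpl-3 had 11051, 11275 and 9413 normalized counts in cfp-1 and 18273, 17713 and 18123 in wild-type libraries (log2 fold change -0.77, standard error 0.12, adjusted p = 0.00134). rps-8 had 13914, 14075 and 14139.9 in cfp-1 and 18845, 23537 and 20208 in wild-type libraries (log2 fold change -0.57, standard error 0.10, adjusted p = 0.00227), and the strains did not overlap in either gene. The exception, rpl-41.1, had 10617, 7161 and 8785 in cfp-1 and 5627, 6884 and 5708 in wild-type (log2 fold change 0.54, standard error 0.15, adjusted p = 0.0223). In the list of 80 genes matched by name, which also held 3 rpa genes of the single-strand binding replication protein A, 54 were lower, a count of 26 without cfp-1 replicate 3 and of 29 without wild-type replicate 2. Other genes of translation and mitochondria had fewer calls, set beside the 12.7% higher and 11.4% lower of all genes tested. Of 69 mitochondrial ribosomal protein genes, 7 were higher and 7 lower (10.1% each, near those shares). Of 71 translation factor and tRNA synthetase genes, 7 were higher and 9 lower (9.86% and 12.7%, near those shares too). Without cfp-1 replicate 3 these counts were 3 and 1 for the first and 4 and 3 for the second list, without wild-type replicate 1 they were 4 and 3 and 4 and 4, without wild-type replicate 2 the lower genes numbered 1 and 4, and without wild-type replicate 3 there were 3 higher mitochondrial ribosomal genes. Respiratory chain and ATP synthase genes had 12 higher and 3 lower of 49 (24.5% and 6.12%, median 0.18). The higher count was 6 without wild-type replicate 1 and 7 without cfp-1 replicate 3. Proteasome subunits had 4 higher and 1 lower of 33 (12.1% and 3.03%), so the share of higher genes was near that of all genes. The higher count was 0 without cfp-1 replicate 3 or wild-type replicate 1, 1 without wild-type replicate 3 and 7 without cfp-1 replicate 1. ucr-2.2, a core subunit of complex III, had 1175, 1336 and 1257 in cfp-1 and 671, 671 and 647 in wild-type libraries (log2 fold change 0.92, standard error 0.10, adjusted p = 0.000102). The lower genes of the last groups include rpn-6.2 of the proteasome, with 64.7, 68.2 and 77.1 in cfp-1 and 115, 230.3 and 176 in wild-type libraries, and cyc-2.2, a cytochrome c gene, with 8.44, 2.39 and 5.43 in cfp-1 and 9.64, 39.8 and 31.3 in wild-type libraries.

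Few genes of sperm type had enough reads to be tested. Early embryos hold little RNA of sperm, and of 124 sperm marker genes 5 passed the filter on low counts, while 75 had 3 counts or fewer in all 6 libraries. Of the 5, msrp-2, gsp-3 and nspd-7 were lower. None was higher by edgeR or DESeq2, and 1 was at an unadjusted p under 0.05. The 124 genes together held 7.62 to 8.34 CPM in cfp-1 and 12.2 to 23.5 CPM in wild-type libraries. msrp-2 had 15.9, 9.57 and 14.1 normalized counts in cfp-1 and 73.9, 171 and 165 in wild-type libraries (log2 fold change -3.34, standard error 0.41, adjusted p = 0.0003). nspd-7 had 3, 1 and 0 raw counts in cfp-1 and 30, 61 and 61 in wild-type libraries, and against the limit of 3 counts per library it was at least 15.9-fold lower in cfp-1. As in ant-1.3 and ant-1.4, wild-type replicate 1 was the lowest wild-type library for msrp-2 and for the summed markers. Of 23 tested genes in a wider list of spermatogenesis genes, which repeats these 3, 5 were higher (21.7%, against 12.7% of all genes tested). That count was 3 without cfp-1 replicate 3. The part of sperm RNA in these differences was not tested.

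Genes with few reads had more calls of higher level in cfp-1. In the lowest of 5 equal bins of genes by mean count, 17.4% were higher and 3.12% lower (median 0.43), whereas in the highest bin 8.92% were higher and 12.3% lower.  Of 1364 listed chemoreceptor genes, which encode receptors of sensory neurons, 143 passed the filter and 53 of these were higher and 2 lower (median 0.97). Since a gene of low counts can pass the filter through the strain in which it is high, these counts describe only the genes that passed. The higher count was 27 without cfp-1 replicate 3 and 32 without wild-type replicate 2 or 3. srw-35 had 22, 3 and 13 raw counts in cfp-1 and 0, 1 and 1 in wild-type libraries, at least 4.17-fold higher against the limit of 3 counts, although cfp-1 replicate 2 did not exceed that limit. In the srt family 6 of 9 tested genes were higher, in srx 6 of 10, in srh 12 of 24, in sre 6 of 14 and in the irld family, named for a domain of insulin and EGF receptors, 4 of 9. irld-39 had 65.6, 38.3 and 44.5 normalized counts in cfp-1 and 5.36, 9.48 and 6.25 in wild-type libraries (log2 fold change 2.79, standard error 0.39, adjusted p = 0.000623).

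Immune, cuticle and peptide genes were also read in part, and their counts describe only the genes that passed the filter. As above, a gene of low counts can pass through the strain in which it is high. In the lowest bin by mean count 17.4% of the genes were higher, with a median of 0.43. Of 58 tested genes for C-type lectins, lysozymes and antimicrobial peptides, of 352 listed, 19 were higher and 3 lower (median 0.69). The count of higher genes was 10 without cfp-1 replicate 1 or wild-type replicate 1 or 2, 11 without cfp-1 replicate 3 and 12 without wild-type replicate 3. clec-73 was the largest decrease, with 15.9, 9.57 and 5.43 normalized counts in cfp-1 and 27.8, 59.7 and 68.8 in wild-type libraries (log2 fold change -2.30, standard error 0.43, adjusted p = 0.00334). Cuticle collagens and cuticle precursors had 11 higher and 1 lower of 84 tested, hedgehog-related genes 4 higher and 0 lower of 22 (0 lower also by DESeq2 and at an unadjusted p under 0.05), and neuropeptide and insulin-like peptide genes 4 higher and 1 lower of 42. The shares of higher genes in the cuticle (13.1%) and peptide (9.52%) lists were near the 12.7% of all genes tested. col-2 had 28.1, 23.9 and 33.7 in cfp-1 and 6.43, 5.69 and 8.34 in wild-type libraries (log2 fold change 2.05, standard error 0.33, adjusted p = 0.0015). flp-18, an FMRFamide-like neuropeptide gene, had 51.6, 16.7 and 35.8 in cfp-1 and 4.28, 11.4 and 8.34 in wild-type (log2 fold change 2.101, standard error 0.45, adjusted p = 0.00675), with cfp-1 and wild-type ranges apart. Sarcomere genes were mostly not called, with tni-3, a troponin I, higher and pat-6, a parvin of muscle attachments, lower among 28. tni-3 had 12.2, 8.37 and 13.03 in cfp-1 and 5.36, 1.90 and 4.17 in wild-type libraries, and pat-6 had 1406, 1927 and 1541 in cfp-1 and 2610.3, 2548 and 2240.3 in wild-type.

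Cell cycle, stress and metabolic lists held calls in both directions, several at shares near the 12.7% higher and 11.4% lower of all genes tested. Of 41 genes for cyclins, mitotic kinases and the MCM helicase with its loaders, 4 were higher and 6 lower, and without cfp-1 replicate 3, wild-type replicate 2 or wild-type replicate 3 the counts were 2 and 3. Apart from plk-3, the lower genes included cyd-1, the cyclin D, and the kinases bub-1 and air-2, and the higher ones plk-2, air-1 and cdk-14. cdk-14 had 92.8, 119.6 and 131 normalized counts in cfp-1 and 41.8, 22.7 and 22.9 in wild-type libraries (log2 fold change 1.97, standard error 0.27, adjusted p = 0.000541). The heat-shock gene hsp-16.2 had 7822, 17147 and 11136 in cfp-1 and 14489, 10574 and 11229.6 in wild-type libraries, which overlapped, and was not called (log2 fold change -0.01, standard error 0.68, adjusted p = 0.995). Of 55 chaperonin and heat-shock genes 5 were higher and 11 lower, counts of 2 and 3 without cfp-1 replicate 3, 2 and 4 without wild-type replicate 1, 1 and 4 without wild-type replicate 3 and 3 and 6 without cfp-1 replicate 1. Detoxification genes had 13 higher and 27 lower of 134, and the lower count was 14 without cfp-1 replicate 3 and 16 without wild-type replicate 1 or 2, while the higher count was 6 without wild-type replicate 1 and 8 without cfp-1 replicate 3. ugt-40 had 129, 90.9 and 91.2 in cfp-1 and 11.8, 18.96 and 23.97 in wild-type libraries, while ugt-24 had 13.1, 26.3 and 16.3 in cfp-1 and 69.6, 54.98 and 51.1 in wild-type. Fatty acid desaturases, elongases and lipid-binding proteins had 9 higher and 12 lower of 40, among them the desaturases fat-1 and fat-2 (higher) and fat-3 and fat-4 (lower). The lower count was 5 without cfp-1 replicate 3 or wild-type replicate 2 and 7 without wild-type replicate 3. In the prx family of peroxisome biogenesis 5 of 11 were lower and 1 higher. Wnt and Notch pathway genes had 4 higher and 4 lower of 34, with 0 lower without cfp-1 replicate 3 or wild-type replicate 1, and the beta-catenin sys-1 had 4180.3, 5135 and 4165 in cfp-1 and 7505, 5677 and 6735 in wild-type libraries (log2 fold change -0.56, standard error 0.15, adjusted p = 0.018). Of 22 transporter genes, ant-1.3, ant-1.4 and snf-1 were lower and 0 higher (0 by DESeq2 and 2 at an unadjusted p under 0.05), and of 47 ubiquitin ligase genes 3 were higher and 5 lower, with 1 lower without cfp-1 replicate 3 or wild-type replicate 2.

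F-box and MATH-BTB genes, large groups of ubiquitin ligase adaptors, held several of the largest changes. Of 212 F-box genes tested, 26 were higher and 46 lower (14 higher without cfp-1 replicate 3 and 16 without wild-type replicate 2 or 3), and of 60 MATH and BTB genes 8 were higher and 14 lower (4 higher and 9 lower without cfp-1 replicate 3, and 5 higher without wild-type replicate 3). The shares of higher genes, 12.3% and 13.3%, were near the 12.7% of all genes tested. Those of lower genes were 21.7% and 23.3%, against 11.4% of all genes tested. Of the 14 lower MATH and BTB genes, bath-4, bath-7, bath-2, bath-1, bath-3, bath-5 and btb-4 lay in runs of neighbouring lower genes, whereas no such run held a gene of the F-box list. Runs of at least 4 neighbouring tested genes called in one direction were found 9 times for higher genes (39 genes) and 7 times for lower genes (30 genes), and the longest held 6 genes in either direction. One run of 6 lower genes covered chrII:1916713-1927347 and held bath-4, bath-7, bath-2, F52C6.4, F52C6.3 and F52C6.2. bath-7 had 6.56, 16.7 and 14.1 normalized counts in cfp-1 and 96.4, 82.5 and 85.4 in wild-type libraries (log2 fold change -2.83, standard error 0.31, adjusted p = 0.000135). F52C6.3 had 4.69, 4.78 and 6.51 in cfp-1 and 49.3, 52.1 and 45.8 in wild-type libraries (log2 fold change -3.18, standard error 0.29, adjusted p = 4.72e-05), and F52C6.2 had 132, 105 and 149.8 in cfp-1 and 476, 659 and 588 in wild-type. Annotated pseudogenes at the same place were low as well. The pseudogene WBGene00018669, from 1929151 to 1930083, had 5.63, 5.98 and 3.26 in cfp-1 and 90.0, 92.9 and 105 in wild-type libraries. A second run of 4 lower genes, bath-1, bath-3, bath-5 and btb-4, covered chrII:2027612-2033243, and bath-1 had 21.6, 53.8 and 40.2 in cfp-1 and 184, 266 and 284 in wild-type libraries (log2 fold change -2.68, standard error 0.30, adjusted p = 0.00015). These genes are similar in sequence, so reads may have been split between them.

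The lower genes around plk-3 formed the run that held the largest fall. F55G1.7, plk-3, F55G1.6 and slc-25A18.2 follow each other on chrIV:7466681-7476182. F55G1.6 had 148, 71.8 and 76.0 normalized counts in cfp-1 and 622, 818 and 779 in wild-type libraries (log2 fold change -2.89, standard error 0.25, adjusted p = 3.54e-05). slc-25A18.2, of the mitochondrial carrier family, had 9.38, 8.37 and 6.51 in cfp-1 and 84.6, 109 and 95.9 in wild-type libraries (log2 fold change -3.55, standard error 0.28, adjusted p = 1.58e-05). F55G1.7 had 139.7, 105 and 242 in cfp-1 and 260.3, 401 and 379 in wild-type libraries (log2 fold change -1.09, standard error 0.28, adjusted p = 0.0145). The next gene along, pycr-4, had 1050.2, 786 and 964 in cfp-1 and 822, 1079 and 995 in wild-type libraries and overlapped. In the other mutants plk-3 had 328, 284 and 349.8 in set-2 libraries and 643 and 617 in sin-3 libraries, within or above the wild-type range but for set-2 replicate 2, whereas F55G1.7 had 141, 122 and 155 in set-2, near its cfp-1 values, and 576 and 704 in sin-3 libraries. The locus lies on the same chromosome as cfp-1, and a linked difference between the strains cannot be told apart from an effect of the allele. fbxa-192, on chrV:17640672-17650527, was also flanked by annotated pseudogenes with low counts. WBGene00010209 before it had 1.88, 0 and 0 in cfp-1 and 40.7, 35.1 and 37.5 in wild-type libraries, and WBGene00010295 after it had 2.81, 3.59 and 7.60 in cfp-1 and 110.3, 54.03 and 68.8 in wild-type. The neighbour fbxa-108 fell less, with 154, 94.5 and 106 in cfp-1 and 251, 336 and 269 in wild-type libraries (log2 fold change -1.26, standard error 0.22, adjusted p = 0.0021).

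**Figure D5:**
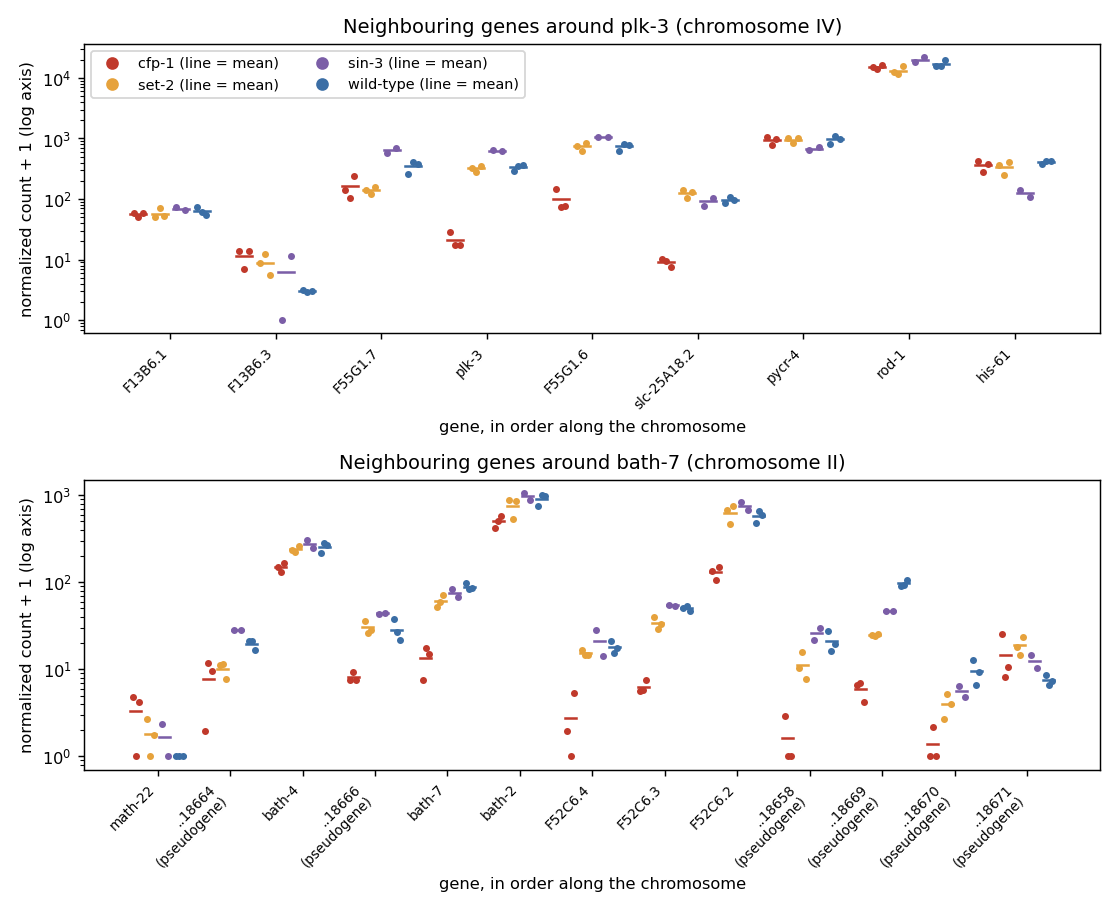
Normalized counts plus 1 on a log axis of every detected gene in order along the chromosome around plk-3 (top) and bath-7 (bottom) in cfp-1, set-2, sin-3 and wild-type libraries, 1 point per library with a line at the mean. Pseudogenes are marked with the last digits of their identifier. plk-3 lies at 28.1, 16.7 and 16.3 in cfp-1, against 285, 351 and 361 in wild-type, while the flanking pycr-4 overlaps between these strains.

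The longest runs of higher genes held 6 and 5 genes. The 6 neighbours C48B4.6, C48B4.7, C48B4.8, C48B4.9, C48B4.10 and C48B4.11 on chrIII:9557448-9566115 were all higher, with log2 fold changes between 0.50 and 1.59. C48B4.7 had 4053, 3648 and 4653 normalized counts in cfp-1 and 1105, 1589.6 and 1420.2 in wild-type libraries (log2 fold change 1.59, standard error 0.14, adjusted p = 3.54e-05). C48B4.8, with the fewest reads of the run in cfp-1, had 256, 220.0 and 224 in cfp-1 and 132, 163 and 150.0 in wild-type libraries. On chrV:2911082-3011494 a run of 5 genes, C31B8.9, srh-87, srh-248, srh-88 and srw-135, had log2 fold changes between 0.99 and 2.46 at low counts. srh-88 had 24.4, 13.2 and 19.5 in cfp-1 and 2.14, 2.84 and 5.21 in wild-type libraries (log2 fold change 2.46, standard error 0.44, adjusted p = 0.00264). Neighbouring worm genes are often transcribed together as operons, and which of these runs are operons was not tested. Over whole nuclear chromosomes, the share of higher genes lay between 11.7% on X and 13.3% on I, and that of lower genes between 7.87% on X and 13.2% on IV. Of 12 mitochondrial genes tested 1 was called, as higher, and log2 fold changes lay between 0.17 and 1.92 (median 0.54). On the autosomes together 12.8% were higher and 11.9% lower.

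cfp-1 embryos were also tested directly against the other mutants, to ask which changes went beyond those of set-2 or sin-3 embryos. These contrasts share the cfp-1 libraries with the one against wild-type. Against set-2, 1451 genes were higher (12.6% of the genes tested) and 1099 lower (9.52%) in cfp-1, and against sin-3, 721 were higher (6.24%) and 617 lower (5.34%). There were 2 sin-3 and 3 set-2 libraries, and the age score of cfp-1 lay nearer to sin-3 than to set-2. Genotype, number of libraries and age cannot be told apart in these counts. Of the genes higher in cfp-1 than in wild-type and in both other mutants, idpp-7, R01H10.4, K10G9.2, Y55F3AM.11 and C34C6.3 rose most. idpp-7 had 79.7, 117 and 136 normalized counts in cfp-1, against 12.0, 13.7 and 13.6 in set-2 libraries and 5.48 and 11.3 in sin-3 libraries, a log2 difference of 3.07 from set-2 (adjusted p = 0.000278) and 3.65 from sin-3 (adjusted p = 0.000449). K10G9.2 had 279, 289 and 274 in cfp-1, against 82.4, 92.5 and 86.3 in set-2 libraries and 68.5 and 66.9 in sin-3 libraries (log2 differences 1.69 and 2.05). For both genes all libraries of the other mutants lay below all cfp-1 libraries. Of the genes lower in cfp-1 than in all the others, fbxa-192, plk-3, R11A8.1, slc-25A18.2 and fbxa-107 fell most. fbxa-192 lay below wild-type in every mutant library and was lowest in cfp-1, with 55.8, 86.2 and 59.1 in set-2 libraries and 245 and 197 in sin-3 libraries (log2 differences -2.63 and -4.35, adjusted p = 0.000158 and 3.19e-06 by the quasi-likelihood test).

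For other large changes of cfp-1 the other mutants stood on either side. C55C3.3 lay above wild-type in set-2. It had 539.9, 365 and 524 normalized counts in set-2 libraries and 34.3 and 25.4 in sin-3 libraries. A difference of cfp-1 from set-2 was not shown by the test (log2 difference -0.54, adjusted p = 0.0631), and cfp-1 differed from sin-3 (3.46, adjusted p = 2.87e-05). oma-2 had 5854, 5609.7 and 7342 in set-2 libraries and 20639 and 17352 in sin-3 libraries, a log2 difference of cfp-1 of 1.65 from set-2 (adjusted p = 4.03e-05) and 0.05 from sin-3 (adjusted p = 0.871). For oma-2 cfp-1 and sin-3 libraries overlapped, and set-2 and wild-type libraries overlapped. For mekk-3 and ztf-18 every mutant library lay above every wild-type library. ztf-18 had 3563, 3561 and 3957 in set-2 libraries and 3814 and 3988 in sin-3 libraries, and mekk-3 had 2279, 2098 and 2187 in set-2 libraries and 1588 and 1711 in sin-3 libraries, where cfp-1 was lower than set-2 (log2 difference -0.81, adjusted p = 0.00155 by the quasi-likelihood test). A p that misses the threshold does not show that strains had equal levels.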

How the data were processed

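RNA-seq counts of 11 libraries were analysed. According to the study and the submitters' processing notes, the authors mapped reads to the WS254 release with STAR 2.4.1d, removed reads of low mapping score with SAMtools 0.1.19, counted reads per gene with HTSeq 0.7.2 and deposited raw counts per gene and library. The authors' deposited tables of DESeq2 fold changes and p-values were not used. WBcel235 as annotated by Ensembl (release 115) holds 46549 of the 46772 identifiers, 19698 of them protein-coding with 97.5% to 98.8% of the counts of a library. Those whose TMM-normalized count averaged above 10 across libraries were tested with edgeR 4.0.16 under R 4.3.3, in 1 quasi-likelihood model with a mean for each strain (square root of the common dispersion 0.173, 7 residual degrees of freedom), and a Benjamini-Hochberg adjusted p under 0.05 was taken as a call. Standard errors are the log2 fold change divided by the square root of F. On simulated data for this comparison, 162 of 200 changed genes and 5 unchanged genes of 11547 were called. Groups at 3 counts or fewer per library were taken as at the detection limit. DESeq2 1.42.0, other scalings and filters, single libraries left out, blocks and an age covariate were the alternatives. Figures were drawn with matplotlib 3.10.9 and tables made with pandas 2.3.3 and numpy 2.4.6 under Python 3.11.15. Promoter sequences were not analysed here.

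Genes, lists and alternatives were chosen with earlier results of these data known. Named genes are the 10 largest increases and decreases with a mean of at least 100 normalized counts and no overlap, the 3 smallest p-values and the 3 most abundant 2-fold changes in each direction, subunits of both complexes, hsp-16.2, the largest called change of each list and members of lists of up to 12 genes, the 5 genes in each direction that differ from all strains, and genes of runs of 5 or more or with such a gene. Further list and family members were named after their values were seen.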

Additional observations from a re-analysis of the deposited data

How the results depend on the processing

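The counts of genes higher in cfp-1 and of genes lower in cfp-1 kept within 1.5 times of 1462 and 1315 under DESeq2 (1595 higher and 1504 lower), DESeq2's size factors, upper-quartile factors (1677 higher and 1110 lower, which moved the median log2 fold change of all genes to 0.033), no filter, filterByExpr, genes of every biotype and the 6 libraries alone (1338 higher and 1060 lower). Scaling factors computed before the filter, an alternative chosen after seeing the data, gave 1261 higher and 1623 lower, so that 43.7% of the calls were higher instead of 52.6%, or 60.2% with upper-quartile factors. An adjusted p under 0.01 left 672 higher and 556 lower. The age covariate left 28 higher and 24 lower, of which 25 and 16 were also called in the main fit. Of the 2777 genes called in the main fit, 2491 kept their sign. Among the named genes and those of the named runs and families, 7 changed sign, 5 of them among the 86 called named genes. They were clec-9 at -0.92, nhr-276 at -0.0702, ceh-17 at -0.56, pas-4 at -0.0705, set-17 at -0.0763, srt-47 at -0.50 and srx-117 at -0.58 on the log2 scale. Of those 86 genes, 15 kept their calls. With each library left out in turn, 845 to 1816 genes were higher, 677 to 1799 were lower, and the log2 fold change of the cfp-1 transcript lay between -1.63 and -1.46. The highest counts came from leaving out set-2 replicate 2. As a replicate block, the number in the sample description gave 1394 higher and 1303 lower genes. Same-numbered cfp-1 and wild-type libraries had correlations of -0.082, -0.43 and 0.31 of their deviations. With 3 libraries a strain these values cannot decide whether the numbers pair the samples. A replicate block by the number in the sample title left 2 residual degrees of freedom and gave 2 higher and 5 lower, with the cfp-1 transcript at -1.54 (adjusted p = 0.0852 by the quasi-likelihood test). Limits are the 3 libraries a strain, 1 allele, embryo age that moved with genotype, and reads shared between members of gene families. Precision is lowest for genes near the filter, and limits set by 3 counts cover counting error alone. In most lists with fewer than 5 calls, leaving out 1 library changed the count by more than 1.5 times.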

Other observations

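Pseudogenes and non-coding genes were left out of the comparison and were tested in a fit over genes of every biotype. Of 453 annotated pseudogenes that passed the same filter, 67 were higher in cfp-1 and 68 lower, compared with wild-type (edgeR, adjusted p under 0.05), with a median log2 fold change of 0.14. In the same fit 1443 of 11547 protein-coding genes were higher and 1318 lower, so the shares of pseudogenes were near those of protein-coding genes. Of 42 lincRNA genes 10 were higher and 9 lower, and of 69 other ncRNA genes 4 were higher and 6 lower. The lincRNA F31A9.2 on chromosome X had 14.1, 20.3 and 20.6 normalized counts in cfp-1 libraries, against 131, 122 and 118 in wild-type libraries, and was named after its values were seen. The libraries were selected for poly(A) RNA, so small RNA genes are read only by chance. Of the 2 piRNA genes called higher, 21ur-963 had 0.938, 74.1 and 46.7 normalized counts in cfp-1 and 6.43, 3.79 and 7.29 in wild-type libraries, so that cfp-1 replicate 1 did not share the higher level.

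Neighbouring pseudogenes away from the named runs were low in cfp-1 as well. On chromosome V, WBGene00014954 (from 16928328 to 16928999) had 2.81, 4.78 and 5.43 normalized counts in cfp-1 and 78.2, 100.5 and 107.3 in wild-type libraries, and its neighbour WBGene00014955 (from 16929167 to 16930063) had 27.2, 19.1 and 20.6 in cfp-1 and 245, 346 and 295 in wild-type libraries. The pseudogene with the largest increase, WBGene00019131 on chromosome II, had 37.5, 62.2 and 56.5 in cfp-1 and 1.07, 6.64 and 4.17 in wild-type libraries. These were chosen after their values were seen, and reads shared with similar genes cannot be told apart.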
